A study of Mus musculus with 2 samples.

Results

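Proliferating spleen cells were taken as the droplets in which RNA of 4 cell division genes could be counted directly. They were selected on the summed unique molecular identifiers (UMIs, each counting 1 captured RNA molecule) of Mki67, Top2a, Birc5 and Cenpf, of which a cell needed at least 3. Cells also needed at least 500 UMIs, at least 200 genes, under 10% mitochondrial UMIs and fewer than 50 UMIs of Jchain, the joining chain of secreted antibody. Of 18131 kept cells, 217 were selected: 91 of 9700 in the wild-type library and 126 of 8431 in the knock-in library. Each was given a lineage by its largest UMI sum among B cell (Cd79a, Cd79b, Ms4a1), T cell (Cd3d, Cd3e, Cd3g), myeloid (Lyz2, S100a8, S100a9) and haemoglobin (Hba-a1, Hba-a2, Hbb-bs, Hbb-bt) genes, and a cell with a tie or none of them stayed unassigned.

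The study profiled spleen suspensions of mice with the 10x Genomics 3' chemistry, in 1 library of genotype M694I WT and 1 of genotype M694I knock-in, a codon change in Mefv, the gene for the inflammasome sensor pyrin. The design text calls the groups age-matched without giving the age, the titles name 1 mouse each, and the animals were kept free of specific pathogens with no treatment named. Spleens were broken up mechanically and red cells were lysed, a step that bears on every erythroid share below. With 1 library per genotype a difference between libraries had no replicate check and no test was made: every interval below is an exact 95% interval for counting error within these 2 libraries.

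The cell cycle runs from G1 through S phase, when DNA is copied, to G2 and mitosis (M). E2F factors raise the genes for DNA copying at the G1 to S border, and the MuvB complex, which represses cell cycle genes as part of DREAM in resting cells, raises the genes for mitosis later together with B-MYB and FOXM1. In the spleen, B cells divide in germinal centres and as plasmablasts, T cells divide after activation, and in the mouse the red pulp also makes erythroid and myeloid cells.

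The 4 selecting genes act late in the cycle. Mki67 codes for the Ki-67 protein that coats mitotic chromosomes, Top2a for topoisomerase II alpha, which untangles copied DNA, Birc5 for survivin of the chromosomal passenger complex, and Cenpf for a kinetochore protein. In the GENCODE annotation of GRCm38 (mm10) Mki67 lies at chr7:135689784-135716361 (minus strand, up to 14 exons), Top2a at chr11:98992943-99024189 (minus, up to 36 exons), Birc5 at chr11:117849251-117855743 (plus, up to 4 exons) and Cenpf at chr1:189640606-189688086 (minus, up to 18 exons).

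Promoters of these genes and of 3 others are printed because the genes of mitosis and of DNA copying differed between the libraries in different ways. Ube2c and Cks2 had the highest knock-in over wild-type ratios of the G2 and M list in B-lineage cells, and Rrm1 the lowest of the S phase list. Each RefSeq window of GRCm38.p6 runs 300 bases on the gene's own strand, from 250 bases before the transcript start to 50 after it. Capitals mark 3 motifs on either strand: the cell cycle homology region (CHR; TTTGAA or TTCGAA), the CCAAT box (CCAAT) and an E2F motif (GGCGGGA). The windows lie at chr7:135716330-135716629 (Mki67, minus), chr11:99024140-99024439 (Top2a, minus), chr11:117848987-117849286 (Birc5, plus), chr1:189688037-189688336 (Cenpf, minus), chr2:164769679-164769978 (Ube2c, plus), chr13:51644982-51645281 (Cks2, plus) and chr7:102441445-102441744 (Rrm1, plus).
Mki67: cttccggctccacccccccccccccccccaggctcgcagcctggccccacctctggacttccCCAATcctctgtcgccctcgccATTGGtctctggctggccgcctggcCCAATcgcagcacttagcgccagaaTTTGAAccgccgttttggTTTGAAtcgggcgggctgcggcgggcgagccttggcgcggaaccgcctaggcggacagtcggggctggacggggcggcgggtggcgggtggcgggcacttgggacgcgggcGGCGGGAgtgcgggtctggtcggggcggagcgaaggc
Top2a: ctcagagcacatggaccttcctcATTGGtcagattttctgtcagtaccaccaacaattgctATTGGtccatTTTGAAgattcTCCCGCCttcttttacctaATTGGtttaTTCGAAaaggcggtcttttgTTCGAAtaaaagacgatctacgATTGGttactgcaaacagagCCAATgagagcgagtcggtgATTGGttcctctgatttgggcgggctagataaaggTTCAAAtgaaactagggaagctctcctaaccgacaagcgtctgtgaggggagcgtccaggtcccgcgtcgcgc
Birc5: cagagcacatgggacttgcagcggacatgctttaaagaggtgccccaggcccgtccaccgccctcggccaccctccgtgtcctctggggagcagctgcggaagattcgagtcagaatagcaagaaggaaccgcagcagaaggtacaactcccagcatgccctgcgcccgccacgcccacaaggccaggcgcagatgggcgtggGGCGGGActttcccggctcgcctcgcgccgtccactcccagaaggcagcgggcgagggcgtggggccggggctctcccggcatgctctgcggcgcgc
Cenpf: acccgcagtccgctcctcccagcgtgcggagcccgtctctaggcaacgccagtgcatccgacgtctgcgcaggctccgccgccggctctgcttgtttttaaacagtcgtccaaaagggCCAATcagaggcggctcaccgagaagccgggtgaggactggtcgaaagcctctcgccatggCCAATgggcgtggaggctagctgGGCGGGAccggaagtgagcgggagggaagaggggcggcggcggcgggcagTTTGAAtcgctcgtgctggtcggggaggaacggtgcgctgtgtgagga
Ube2c: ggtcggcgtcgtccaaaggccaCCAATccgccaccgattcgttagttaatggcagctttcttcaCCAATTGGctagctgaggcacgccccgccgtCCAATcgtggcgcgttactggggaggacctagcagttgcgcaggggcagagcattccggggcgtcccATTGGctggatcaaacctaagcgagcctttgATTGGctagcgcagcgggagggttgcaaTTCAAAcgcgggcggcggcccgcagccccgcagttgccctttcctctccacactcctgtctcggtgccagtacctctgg
Cks2: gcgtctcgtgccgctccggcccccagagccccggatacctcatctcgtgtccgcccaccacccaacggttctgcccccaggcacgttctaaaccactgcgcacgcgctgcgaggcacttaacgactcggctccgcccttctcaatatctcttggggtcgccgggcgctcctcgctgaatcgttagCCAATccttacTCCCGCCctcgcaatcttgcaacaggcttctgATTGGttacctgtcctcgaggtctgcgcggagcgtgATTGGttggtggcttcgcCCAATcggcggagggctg
Rrm1: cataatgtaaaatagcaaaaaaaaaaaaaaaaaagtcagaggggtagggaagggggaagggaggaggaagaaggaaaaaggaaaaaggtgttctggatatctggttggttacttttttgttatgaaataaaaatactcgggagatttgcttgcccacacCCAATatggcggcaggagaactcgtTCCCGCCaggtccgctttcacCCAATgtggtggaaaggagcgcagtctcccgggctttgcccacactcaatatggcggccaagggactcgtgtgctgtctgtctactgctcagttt
Top2a held 4 CHR motifs, 6 CCAAT boxes and 1 E2F motif, Mki67 2, 3 and 1, and Cenpf 1, 2 and 1. Birc5 held 0 CHR motifs, 0 CCAAT boxes and 1 E2F motif, and Cks2 0, 4 and 1. Ube2c held 1 CHR motif, 6 CCAAT boxes, of which 1 pair overlapped, and no E2F motif. Rrm1, which codes for a subunit of the enzyme that makes deoxynucleotides, held 2 CCAAT boxes and 1 E2F motif. A CHR motif stood in 79.6% of the 49 windows of the G2 and M list, in 13.2% of the 38 windows of the S phase list and in 19.2% of all 32851 windows. CCAAT boxes stood in 81.6%, 57.9% and 37.4%, and E2F motifs in 28.6%, 36.8% and 11.3%. The mitotic windows therefore carried the CHR and the CCAAT box together in 69.4% of cases, against 10.5% of S phase windows and 7.52% of all windows. These are matches of letters, not shown binding sites.

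The libraries differed in depth. The wild-type file held 10449 barcodes and 32797052 UMIs, the knock-in file 9000 and 25193274, with medians of 2551.5 and 2025 UMIs per kept cell. Proliferating cells were far deeper than the rest, at medians of 10523 (924 to 51411) and 9462.5 (831 to 40710) UMIs. Of the 27 barcode sequences that occurred in both libraries, 0 belonged to proliferating cells, and the doublet caller Scrublet marked 2 wild-type and 0 knock-in proliferating cells. A 3' count does not read the changed Mefv codon, so the genotype labels could not be checked in these data. Mefv had 153 and 77 UMIs in the kept cells and 3 and 2 in the proliferating cells.

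Summed over the cells, genes of the cycle that were not used for the selection were much higher than in cells without marker UMIs. In kept cells with 0 marker UMIs the 46 S phase genes summed to 883 (wild-type) and 879 (knock-in) UMIs per 1000000 UMIs (CPM). They summed to 4810 and 4429 CPM in the B-lineage proliferating cells and to 4369 and 5520 CPM in those of the T lineage. The 51 G2 and M genes stood at 1896 and 1907 CPM in cells with 0 marker UMIs, and at 6583 and 9267 CPM in the B-lineage and 9472 and 9746 CPM in the T-lineage proliferating cells. Just outside the limit, the 34 wild-type and 40 knock-in cells with 2 marker UMIs had 1420 and 2563 CPM of the S phase list and 2001 and 2823 CPM of the G2 and M list. Just inside it, the 17 and 9 cells with 3 marker UMIs had 2945 and 3093 CPM, and 3419 and 4597 CPM.

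Of the 91 wild-type and 126 knock-in cells, 40 and 65 held 12 or more marker UMIs. Top2a was seen in 78 of 91 wild-type and 104 of 126 knock-in cells, Birc5 in 74 and 118, Mki67 in 62 and 100, and Cenpf in 45 and 75. Some B-lineage cells passed on Top2a alone, more of them in the wild-type library, and most of these held few UMIs of the cycle lists. In the other B cells Top2a stood at 10.0 and 8.56 CPM, Mki67 at 1.47 and 1.64, Birc5 at 0.833 and 1.93 and Cenpf at 0.539 and 0.571. How far such cells enter the B-lineage comparisons was not tested. As a background, 5 of 126 wild-type and 4 of 58 knock-in cells with at least 20 UMIs of the neutrophil genes S100a8 and S100a9 held any marker UMI, at median depths of 1182.5 and 1098 UMIs. At least 3 marker UMIs were held by 1 and 3 of those cells, which therefore count among the proliferating cells.

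**Figure D1:**
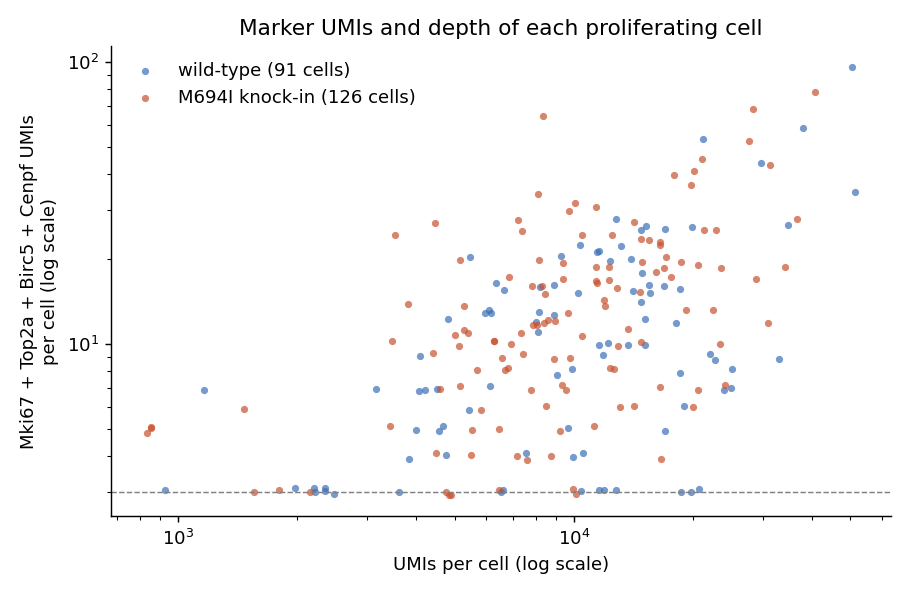
Each point is 1 proliferating cell, with its total UMIs on a log scale on the x axis and its summed UMIs of Mki67, Top2a, Birc5 and Cenpf on a log scale on the y axis (points are moved up or down slightly so that they do not hide each other), and the dashed line is the limit of 3. The 91 wild-type and 126 knock-in cells overlap widely in depth, and cells of 10000 UMIs or more reach from the limit to the highest marker counts.

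Proliferating cells made up a larger share of the knock-in library. They were 91 of 9700 kept wild-type cells, or 0.938% (0.756 to 1.15), and 126 of 8431 kept knock-in cells, or 1.49% (1.25 to 1.78), a ratio of 1.59 (1.21 to 2.11). Under a limit of 5% mitochondrial UMIs the log2 ratio of this share was 0.38, with an interval of -0.05 to 0.81 that includes 0, against 0.67 (0.27 to 1.08) at the limit of 10%. In the B lineage 50 of 6769 wild-type B cells (0.739%, 0.549 to 0.973) and 82 of 5798 knock-in B cells (1.41%, 1.13 to 1.75) were proliferating, a ratio of 1.91 (1.33 to 2.78). In the T lineage the order was the other way, with 33 of 1935 (1.71%, 1.18 to 2.39) and 23 of 1813 (1.27%, 0.806 to 1.90), but the interval of the log2 ratio of -0.43 ran from -1.26 to 0.38.

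Depth enters such a share, because a shallow cell less often shows 3 marker UMIs. Between 500 and 1999 UMIs 0.128% of wild-type and 0.145% of knock-in cells were proliferating, and between 2000 and 4999 UMIs 0.277% and 0.337%. By these fixed ranges the gap stood in the deeper cells. Between 5000 and 9999 UMIs it was 22 of 1068 (2.06%, 1.30 to 3.10) against 50 of 619 (8.08%, 6.05 to 10.5). From 10000 UMIs up it was 49 of 142 (34.5%, 26.7 to 42.9) against 58 of 112 (51.8%, 42.1 to 61.3). A fixed range does not hold matched cells, because the knock-in library was shallower and had fewer cells of any kind in these ranges. How far that enters the gap was not tested. With every cell thinned to 1000 UMIs, which left out 157 wild-type and 378 knock-in cells, 1.78% and 2.14% kept at least 1 marker UMI, a log2 ratio of 0.26 with an interval of -0.05 to 0.58. At least 2 marker UMIs were kept by 0.367% and 0.608%, a log2 ratio of 0.73 (0.08 to 1.40), beside the 0.67 at full depth. Before thinning, at least 1 marker UMI was held by 4.31% of the B cells of the wild-type library and 4.10% of those of the knock-in library, so the gap appeared among cells with several.

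**Figure D2:**
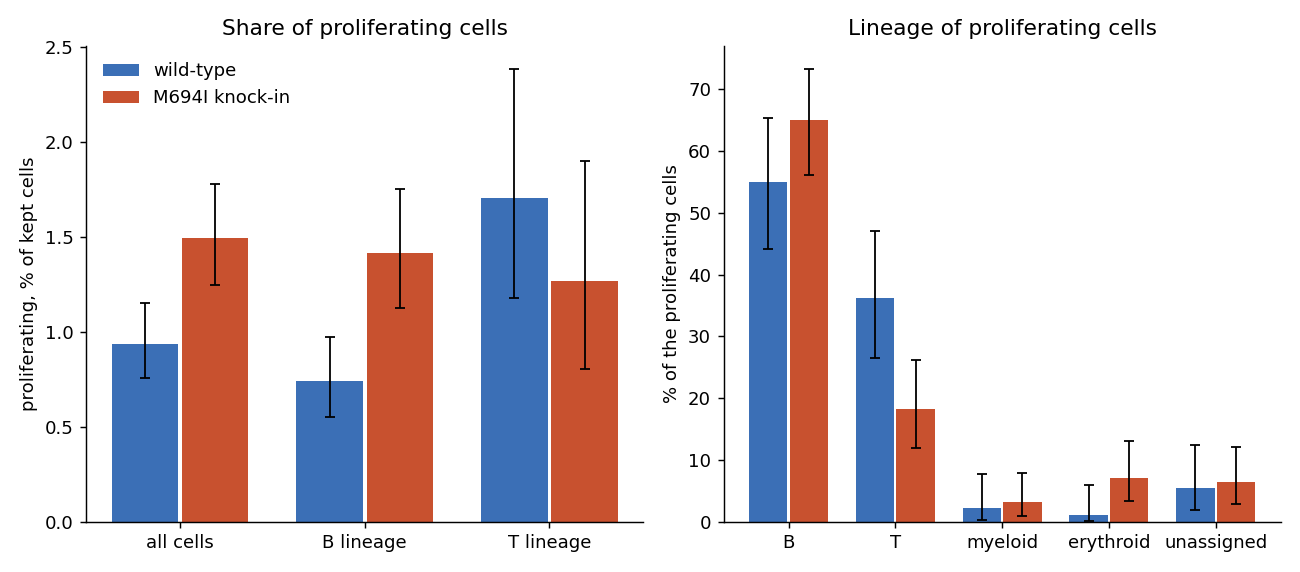
The left panel gives the proliferating cells as a percentage of all kept cells, of B cells and of T cells, and the right panel the lineages as a percentage of all proliferating cells, in the wild-type (blue) and knock-in (red) library; error bars are exact 95% intervals for counting error. In the left panel the knock-in bar is higher for all cells (1.49% against 0.938%) and B cells (1.41% against 0.739%), and in the right panel the T share is lower (18.3% against 36.3%).

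The lineage mix differed accordingly. B-lineage cells were 54.9% (44.2 to 65.4) of the wild-type and 65.1% (56.1 to 73.4) of the knock-in proliferating cells, and T-lineage cells were 36.3% (26.4 to 47.0) and 18.3% (11.9 to 26.1). Among all kept cells these lineages were of much the same size in both libraries, B cells at 69.8% and 68.8% and T cells at 19.9% and 21.5%. Proliferating cells of the erythroid lineage were 1 of 30 such cells in the wild-type library (3.33%, 0.0844 to 17.2) and 9 of 46 in the knock-in library (19.6%, 9.36 to 33.9). Myeloid cells were 2 and 4, of which 1 in each library was named on 1 UMI of Lyz2 alone, and 5 and 8 were unassigned.

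List genes that the lineage rule did not use were read to check these names. The 5 such B genes had UMIs in 46 of 50 (wild-type) and 79 of 82 (knock-in) cells of the B lineage, against 4 of 33 and 7 of 23 T-lineage cells. The 7 such T genes had UMIs in all 33 and 23 T-lineage cells, against 16 of 50 and 22 of 82 cells of the B lineage. In the T lineage the whole B list summed to 13 UMIs in the wild-type library, where 0 cells reached 10, and to 90 in the knock-in library, where 3 cells did. Some names rested on few UMIs. Only 2 or fewer UMIs of the 3 B genes of the rule were held by 2 wild-type and 4 knock-in B-lineage cells, of which 1 and 2 held any of the 5 other B genes, and by 2 wild-type and 0 knock-in T-lineage cells for the T genes. The knock-in B lineage held among these 1 cell of 28893 UMIs with 741 UMIs of Mpo, Elane, Prtn3 and Ctsg, the primary granule proteins of early neutrophils, and only 2 UMIs of the B genes. It supplied 2.80% of that lineage's UMIs, and results with and without it are given where it moved them. In the T lineage, 9 of 33 wild-type and 6 of 23 knock-in cells held at least 10 UMIs of a natural killer (NK) cell list.

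Within each lineage, proliferating cells stood apart from the other cells of the same library in genes of DNA copying, mitosis and chromatin. This contrast is the one used for the selection, so it is given as a description from which nothing is inferred. Among genes of at least 100 CPM in either population, 16.2% (wild-type) and 19.3% (knock-in) were at least 2-fold higher in the B lineage, and 26.3% and 23.4% in the T lineage. Of the S phase list 18 of 18 measured genes in the wild-type and 13 of 14 in the knock-in B lineage passed 2-fold, as did 11 of 13 and 16 of 18 of the G2 and M list. In the T lineage 14 of 16 and 18 of 19 S phase genes and 14 of 17 and 19 of 20 G2 and M genes did.

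Pclaf, which codes for a clamp-binding protein of DNA copying, stood at 646 CPM in wild-type B-lineage proliferating cells against 2.4 in the other B cells, and at 793 against 4.42 in the knock-in library. Rrm2, the other subunit of ribonucleotide reductase, stood at 123 CPM in both libraries against 0.980 and 1.5 in the other B cells. In the T lineage Nusap1, a protein of the mitotic spindle, had log2 ratios over other T cells of 7.93 and 7.11. The linker histone gene Hist1h1b was among the leading genes of both lineages, at log2 ratios of 5.38 and 5.22 in B and 5.98 and 6.12 in T cells.

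Genes of resting lymphocytes were lower in dividing cells. Of the resting B list, 7 of 7 measured genes were at least 2-fold lower in each library, with medians of -1.55 and -2.09, where 7.81% (wild-type) and 10.6% (knock-in) of all measured genes were. Fcer2a (CD23, a receptor of follicular B cells) had log2 ratios of -2.02 and -3.01, and Ighd, the IgD heavy chain of naive cells, -1.94 and -2.58. In T cells Klf2, a factor that keeps lymphocytes quiescent and recirculating, had -2.29 and -2.31, and Il7r, the interleukin 7 receptor, -1.84 and -3.10. Glycolysis genes were higher, 6 of 9 and 7 of 9 passing 2-fold in B cells, among them Ldha at 1.61 and 1.64. The gene Myc itself was lower in proliferating than in other B cells, at -1.23 and -1.65, while Npm1, a nucleolar protein, was higher at 1.42 and 1.25.

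Between the libraries, B-lineage proliferating cells of the knock-in spleen carried more mitotic RNA. Of the G2 and M list 15 genes could be measured: 12 had a log2 ratio of 0.32 or more and 0 one of -0.32 or less, with a median of 0.72 and a range of -0.08 (Smc2) to 1.27 (Ube2c). The interval lay above 0 for 13 of the 15. The cells were selected on 4 genes that also peak in G2 and M, so this list was not independent of the selection. In these cells the 4 selecting genes summed to 949 (wild-type) and 1257 CPM (knock-in), a log2 ratio of 0.41 (0.26 to 0.55). How far the selection enters the difference was not tested. Over all 1346 genes measured in these cells 24.7% reached the upper of these limits and 12.4% the lower, with a median of 0.11. In the other B cells 4 genes of the list could be measured, with a median of 0.06.

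Ube2c, the ubiquitin-conjugating enzyme that works with the anaphase-promoting complex, stood at 149 CPM (120 to 183) in the wild-type and 359 CPM (323 to 398) in the knock-in cells, a log2 ratio of 1.27 (0.93 to 1.62). It was found in 27 of 50 and 59 of 82 cells. Cks2, a small partner of cyclin-dependent kinases, stood at 214 and 475 CPM, a log2 ratio of 1.15 (0.87 to 1.45). Cenpa, the histone of the centromere, stood at 215 and 440 CPM (1.03, 0.75 to 1.32), and Ccna2, cyclin A2 of S phase and G2, at 72.8 and 144 CPM (0.98, 0.48 to 1.5). For all 4 genes the CPM intervals of the libraries did not overlap. The 4 selecting genes chose the cells, and their levels are a description only: Birc5 stood at 215 and 419 CPM, Cenpf at 106 and 191, Mki67 at 228 and 268 and Top2a at 399 and 378.

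Genes of DNA copying did not share this difference. Of the 18 measured genes of the S phase list 1 was higher and 3 were lower, and the median was -0.14. Rrm1 stood at 152 and 98.0 CPM (-0.64, -1.06 to -0.21), and Mcm4, a subunit of the helicase that opens DNA, at 127 and 89.3 CPM (-0.51, -0.97 to -0.06). Mcm5 of the same helicase had -0.37 with an interval up to 0.08, and Rfc2, of the clamp loader, was the higher gene at 139 and 208 CPM (0.58, 0.21 to 0.96). The difference between the lists depended on how cells were weighted: with each cell scaled to its own total before averaging, the G2 and M median was 0.36, the S phase median 0.041 and the Ube2c ratio 0.36. In cells without a UMI of 5 germinal centre genes the G2 and M median was 0.45.

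**Figure D3:**
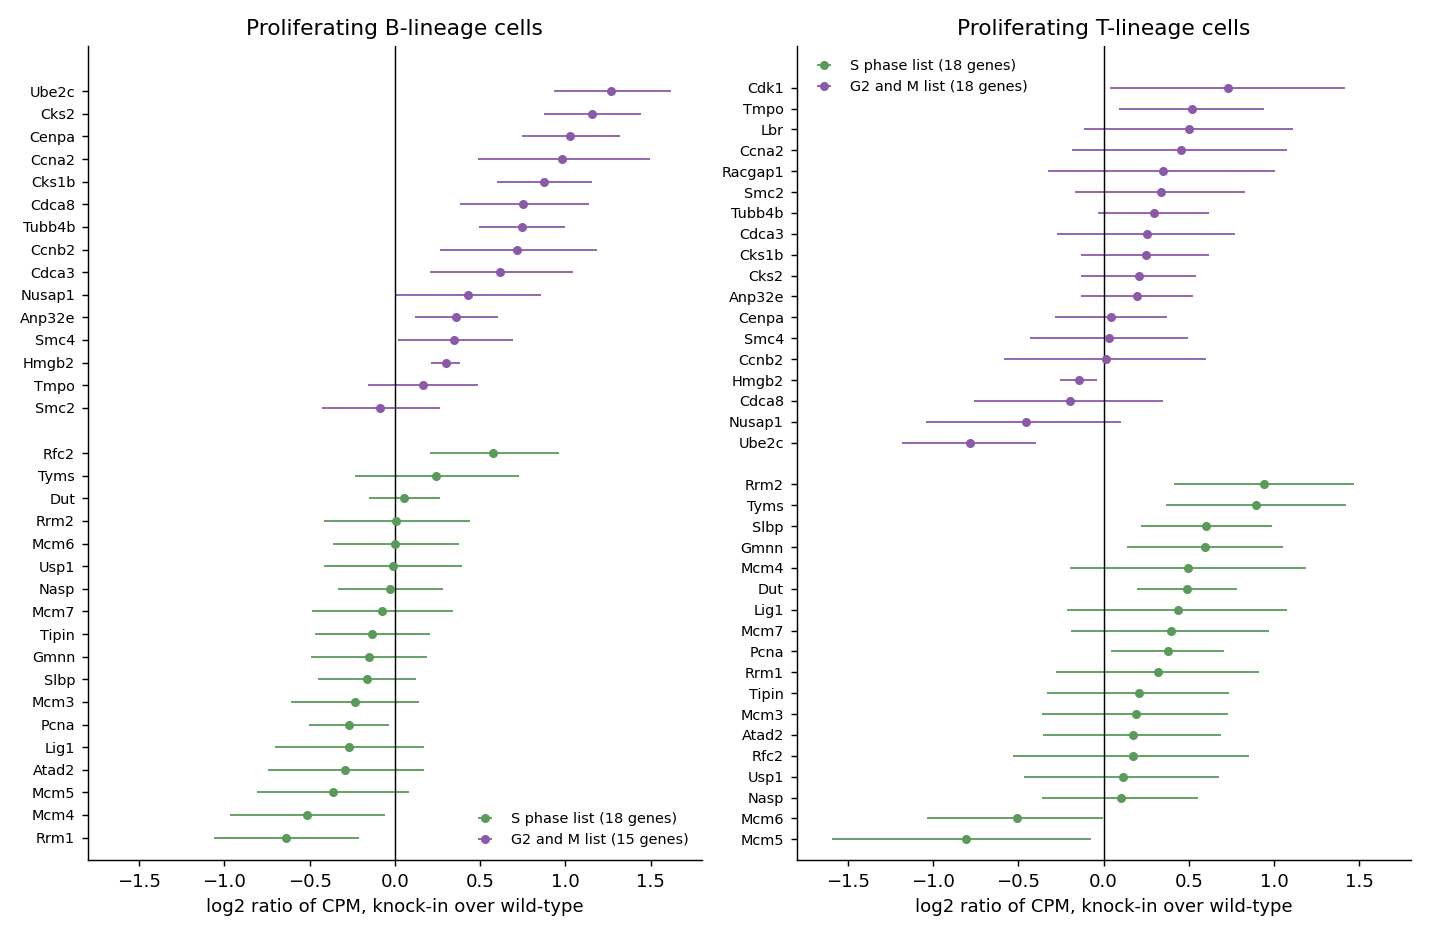
Log2 ratio of CPM, knock-in over wild-type, for each measured gene of the G2 and M list (purple) and the S phase list (green) in proliferating B-lineage (left) and T-lineage (right) cells, with exact 95% intervals for counting error. In B cells 13 of 15 G2 and M genes have intervals above 0 and 1 of 18 S phase genes does, while in T cells 2 of 18 G2 and M genes and 6 of 18 S phase genes do.

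The phase of single cells was read as the S phase UMIs in percent of S phase and G2 and M UMIs, without the 4 selecting genes, in cells with at least 10 such UMIs. In 45 wild-type B-lineage cells the median was 42.2% (interval of the median 27.5 to 48.0, cells from 1.96 to 69.7), and in 79 knock-in cells 27.5% (21.5 to 36, cells from 5.45 to 63.2). The intervals overlapped. At 50% or more stood 14 of the 45 wild-type and 13 of the 79 knock-in cells. T-lineage cells had medians of 28.8% (n = 33) and 28.2% (n = 23). The knock-in T median was unstable: it was 40.2% when at least 5 marker UMIs or at least 5000 UMIs per cell were asked for, and 41.4% at 2 marker UMIs. As background, the selecting genes peak in G2 and M, and cells early in S phase pass the selection less readily.

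**Figure D4:**
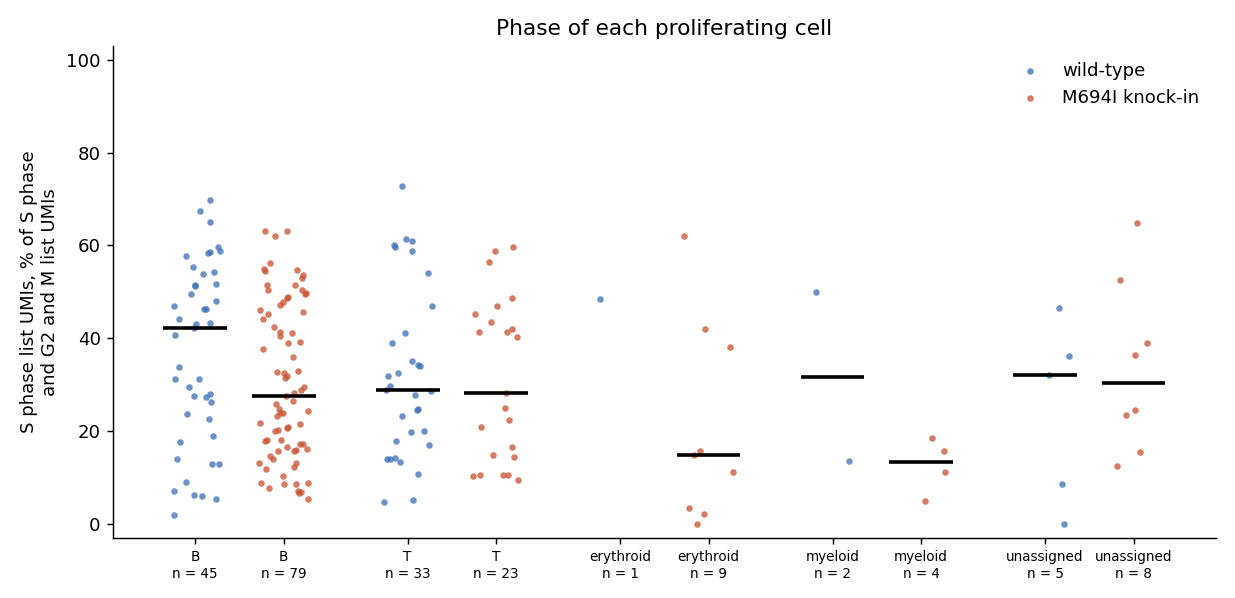
Each point is 1 proliferating cell with at least 10 UMIs of both lists, and the y axis gives its S phase UMIs in percent of S phase and G2 and M UMIs, by lineage, with wild-type in blue and knock-in in red; black bars are medians. The wild-type B-lineage median is 42.2% and the knock-in one 27.5%, with wide overlap, while the T-lineage medians are 28.8% and 28.2%.

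Across all measured genes of the B lineage, 11 of 1346 (0.817%) were at least 2-fold higher and 9 (0.669%) at least 2-fold lower in the knock-in cells. With TMM scaling the counts were 20 and 5. Leaving out the cell with granule genes gave 12 and 6. Among genes that no single cell dominated, the highest ratios were those of Rgcc (54.6 and 165 CPM; 1.59, 1.05 to 2.18), a regulator of the cell cycle, Blvrb (172 and 433 CPM; 1.33), which codes for biliverdin reductase B, and Cmtm7 (71.2 and 177 CPM; 1.31). Ube2c, Cks2, Cdk2ap2 (1.10), Cenpa and Etfb (1.00), an electron transfer flavoprotein of mitochondria, followed. Rgcc was at 210 and 211 CPM in the other B cells, and its ratio was 0.82 with each cell scaled to its own total. Blvrb, which red cell precursors also express, supplied 104 of 160 wild-type and 446 of 538 knock-in UMIs of the erythroid list in these cells, and its ratio in the other B cells was 0.52.

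The lowest ratios were those of Malt1 (280 and 95.1 CPM; -1.56, -1.93 to -1.19), a protease of antigen receptor signalling to NF-kB, and Marcks (154 and 61.1 CPM; -1.33). Malat1, a nuclear noncoding RNA, stood at 12485 and 5689 CPM (-1.13), and was also lower in the other B cells (30470 and 19645 CPM). Zfp36l1 (-1.11), Ago2 (-1.06), Satb1 (-1.03), Gimap6 (-1.02) and Clic4 completed the list, and for all 8 the ratio in the other B cells had the same sign and was smaller.

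Gene groups around the cycle gave smaller differences. Of 9 glycolysis genes 7 were higher and 0 lower (median 0.38), and the other B cells of the libraries had 0.42. Of 10 genes for the nucleolus and Myc targets 0 were higher and 4 lower (median -0.24), led by Nolc1 (-0.62) and Ddx21 (-0.59). In the other B cells 3 of 8 of these genes were lower (median -0.18), with Ddx21 at -0.81. Of 5 resting B genes 0 were higher and 3 lower (Btg1 -0.76, Ighd -0.63, Ccr7 -0.57). Their median of -0.57 became 0.12 in cells without germinal centre gene UMIs.

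Histone genes were split. The variant histones H2afx (0.93), H2afv (0.73) and H2afz (0.54), whose transcripts are polyadenylated, were higher, and the core histone gene Hist1h2ap was lower (1591 and 1006 CPM; -0.66). The median of the 7 measured was -0.07. Core histone transcripts mostly lack the poly(A) tail that the chemistry captures.

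The regulators of the cycle gave few counts. E2f2 had 26 and 13 UMIs (-1.77, -2.85 to -0.76), Cdkn1a, the p21 inhibitor, 2 and 17 UMIs, and Cdkn3, a phosphatase of the cycle, 25 and 74 UMIs (0.79, 0.12 to 1.51). Cyclin D1 (Ccnd1) had 13 UMIs in 3 wild-type cells and 0 in the knock-in cells. Cdk4, the kinase of G1, was the 1 gene of these 21 that passed the filter, at 233 and 307 CPM (0.39, 0.10 to 0.69).

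Interferon genes were close to level in the dividing B cells. The interferon gamma list had 2 of 8 higher and 0 lower (median 0.15), and 1 of 3 type I interferon genes was higher and 0 lower. Over all 1346 measured genes 24.7% were higher and 12.4% lower. In the other B cells 3 of 6 interferon gamma genes were higher and 0 lower (median 0.38). Of the type I genes there 1 of 5 was higher and 0 lower (median 0.22). Psmb8, an immunoproteasome subunit, stood at 392 and 768 CPM (0.97, 0.76 to 1.18), and was also higher in the other B cells (0.80). The MHC class I list had 0 of 8 higher, with a median of 0.08, against 0.30 in the other B cells.

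Some germinal centre genes were more abundant in the knock-in B-lineage cells, while the wider list was mixed. Germinal centre B cells divide fast while their antibody genes are diversified, and 5 genes of a 17-gene list, picked with earlier results known, were read together: Mef2b, a transcription factor, Rgs13 and S1pr2, which limit migration, Gcsam and Nuggc. They summed to 44 UMIs (72.8 CPM) in the wild-type and 201 UMIs (195 CPM) in the knock-in cells, a log2 ratio of 1.42 (0.94 to 1.93). At least 1 UMI was found in 12 of 50 wild-type cells (24.0%, 13.1 to 38.2) and 34 of 82 knock-in cells (41.5%, 30.7 to 52.9), and at least 3 UMIs in 5 and 21. After thinning to 1000 UMIs, 3 of 50 and 14 of 81 cells held a UMI.

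The sum of these genes was low in the other B cells, but there too it was higher in the knock-in library. A UMI was held by 2.07% (wild-type) and 2.76% (knock-in) of the other B cells (8.18 and 17.7 CPM). Their median depths were 2382 and 1853 UMIs, against 9469.5 and 10017 in the proliferating B cells. At least 3 UMIs were held by 2 of 6719 wild-type and 20 of 5716 knock-in other B cells. The difference between the libraries was therefore not particular to the proliferating cells. In proliferating T cells, which should lack these genes, it was 1 of 33 and 2 of 23, at median depths of 12800 and 9385. Mef2b had 13 UMIs in 6 wild-type cells and 92 in 28 knock-in cells (2.05, 1.21 to 3.02), and Rgs13 15 UMIs in 10 cells and 57 in 16 (1.16, 0.32 to 2.08). S1pr2 had 6 and 17 UMIs, Gcsam 4 and 20 and Nuggc 6 and 15, and their intervals reached below 0. With each cell scaled to its own total the ratio of Gcsam was -0.11, against 1.55 from the sums.

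Other genes of the germinal centre did not all go along. Fas, the death receptor that such cells carry, had 9 and 41 UMIs (1.42, 0.35 to 2.64), while Bcl6, the factor that directs the germinal centre program, had 16 and 23 (-0.25, -1.23 to 0.77). Cxcr5, a receptor for follicle homing, had 33 and 29 UMIs (-0.96, -1.73 to -0.19). The ratios of Lipc (-1.09), Mybl1 (-0.45), Bach2 (-0.32), Cd83 (-0.20) and Cxcr4 (-0.14) were also below 0, with intervals that include 0. Of the 17 genes 10 had a ratio above 0 and 7 below, and the interval lay above 0 for 4 and below 0 for 1. That count includes the 5 picked genes. Of the 12 others 5 had a ratio above 0 and 7 below, and the interval lay above 0 for 2 and below 0 for 1. The 3 genes that passed the filter had a median of -0.14, with 1 higher and 0 lower. Over the whole list the sums were 828 and 927 CPM (0.16, 0.01 to 0.32).

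**Figure D5:**
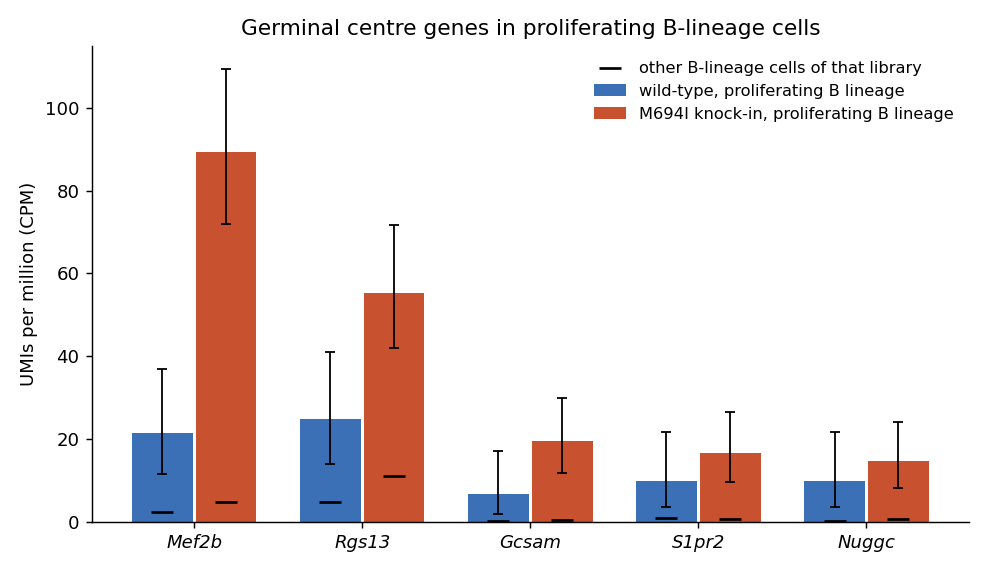
CPM of 5 germinal centre genes in proliferating B-lineage cells of the wild-type (blue) and knock-in (red) library, with exact 95% Poisson intervals; short black lines give the level in the other B cells of the same library. The knock-in bar is the higher for each gene, the intervals are apart for Mef2b and Rgs13, and all bars stand above the lines of the other B cells.

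Phase was read separately in cells with and without these genes. The median S phase percentage was 48.0 in 11 wild-type cells with a germinal centre UMI and 31.3 in 34 without. In the knock-in library it was 28.5 in 34 and 26.5 in 45 cells. The split rests on 11 wild-type cells and was not tested.

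The antibody class was IgM for most. Ighm led the heavy chain counts in 43 of 50 wild-type and 69 of 82 knock-in cells. An IgG class led in 4 of 50 and 8 of 82 cells. Single IgG classes differed in UMIs: Ighg2b had 13 UMIs in 5 wild-type cells and 291 in 19 knock-in cells, of which 1 cell held 55.3%. Ighg2c had 1 UMI and 47 UMIs (17 knock-in cells), and Ighg1 went the other way with 40 UMIs in 3 cells and 16 in 1 cell. The other B cells of the knock-in library also held more Ighg2b (log2 ratio 1.83) and Ighg2c (2.64, with 1 cell holding 80.3% of its UMIs). Ighd was lower in the knock-in cells, at 126 and 81.5 CPM (-0.63, -1.09 to -0.16). The constant regions of the IgG classes are close in sequence, so reads may have been assigned among them with error.

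Of the plasmablast list 5 genes were measured, of which 4 were higher and 0 lower (median 0.54). In the other B cells 1 of 3 measured genes was higher and 1 lower (median 0.10). Jchain, 1 of the 4, was limited by the selection, so its values are a description only. Mzb1, a chaperone of the endoplasmic reticulum in B cells, stood at 535 and 734 CPM (0.46, 0.27 to 0.65), Sdf2l1 at 89.4 and 155 CPM (0.80, 0.34 to 1.27) and Hsp90b1 at 589 and 857 CPM (0.54, 0.36 to 0.72). The other B cells had log2 ratios of 0.73 for Mzb1, 0.65 for Sdf2l1 and 0.10 for Hsp90b1. Below the limit of 50 UMIs per cell, Jchain was found in 5 of 50 wild-type and 27 of 82 knock-in cells, at 104 and 315 CPM, against 6.32 and 36.1 CPM in the other B cells. The factors Prdm1 (8 and 16 UMIs) and Irf4 (43 and 74) did not differ beyond counting error, and Sdc1 (CD138) had 1 and 3 UMIs. Of the knock-in cells with a germinal centre UMI 20 of 34 also held Jchain, as did 4 of 12 in the wild-type library.

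Most genes of a 9-gene list of B cell precursors were not detected. In each library 3 of the 9, Vpreb3, Cd93 and Il7r, had UMIs, and the list summed to 104 (wild-type) and 186 (knock-in). Vpreb1, Vpreb2, Igll1, Rag1, Rag2 and Dntt had 0 UMIs in the B-lineage proliferating cells of both libraries, which allows up to 3 of 603988 wild-type and 1030525 knock-in UMIs each. Vpreb3, which mature B cells keep, had 94 and 162 UMIs (0.01, -0.36 to 0.40). Of the B cell transcription factors, Pax5 stood at 104 and 63.1 CPM (-0.73, -1.25 to -0.20) and Ebf1 at 904 and 633 CPM (-0.51, -0.68 to -0.35), with ratios of -0.27 and -0.28 in the other B cells. The genes that assigned the lineage went different ways, and are given as a description: Cd79a stood at 1512 and 1554 CPM, Cd79b at 546 and 642 and Ms4a1 at 654 and 539.

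The T lineage gave a different picture from 33 wild-type and 23 knock-in cells. Of 1408 measured genes 18 (1.28%) were at least 2-fold higher and 14 (0.994%) at least 2-fold lower. Of them 20% had a log2 ratio of 0.32 or more and 14.8% one of -0.32 or less, with a median of 0.04. Of the S phase list 10 of 18 were higher and 2 lower (median 0.35). Of the G2 and M list 6 of 18 were higher and 2 lower (median 0.23).

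Rrm2 stood at 124 and 238 CPM (0.94, 0.41 to 1.47) and Tyms, thymidylate synthase, at 126 and 235 CPM (0.89, 0.37 to 1.42). Ube2c, so much higher in the knock-in B cells, was lower in the knock-in T cells, at 460 and 267 CPM (-0.78, -1.18 to -0.40). Mcm5 was lower as well (133 and 75.9 CPM; -0.80, -1.59 to -0.07). Of the selecting genes, as a description, Birc5 stood at 437 and 585 CPM and Top2a at 377 and 405. The list medians of 0.35 (S phase) and 0.23 (G2 and M) in the T lineage stood beside -0.14 and 0.72 in the B lineage, and the difference between lineages was not tested.

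The subsets of the dividing T cells differed in numbers. Cd8a or Cd8b1 without Cd4 was seen in 8 of 33 wild-type (24.2%, 11.1 to 42.3) and 12 of 23 knock-in cells (52.2%, 30.6 to 73.2), and Cd4 without Cd8 in 14 (42.4%, 25.5 to 60.8) and 4 (17.4%, 4.95 to 38.8). The intervals overlapped in each case. Both were seen in 3 and 0 cells and neither in 8 and 7. Among the other T cells 26.1% and 35.1% were of the first kind and 12.7% and 9.72% of the second, at a lower depth.

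RNA of activation receptors was seen in most of the dividing T cells, which were deeper than the other T cells. Ctla4 was seen in 24 of 33 and 18 of 23 cells, against 18.7% and 24.7% of the other, shallower T cells. Icos was seen in 21 and 12 cells, against 22.7% and 29.2% of the other T cells. In CPM, which scales for depth, the libraries differed. Over the other T cells Ctla4 had log2 ratios of 1.03 (wild-type) and 0.29 (knock-in), and Icos 0.57 and -0.85. Foxp3, the factor of regulatory T cells, had a UMI in 2 of 33 wild-type and 0 of 23 knock-in cells, against 1.21% and 1.51% of the other T cells. A count of 0 of 23 allows a share of cells with a UMI of up to 14.8% (exact interval), and says nothing of cells whose Foxp3 RNA was not captured. Early response genes were higher in the knock-in cells, 5 of 7 measured and 0 lower (median 0.47), among them Fos (60.1 and 152 CPM; 1.34) and Junb (414 and 856 CPM; 1.05). The same list had a median of 0.38 in the other T cells.

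Levels of cytotoxic genes, such as Ccl5 in proliferating T-lineage cells, rested on few cells. Gzma (granzyme A) had 218 and 7 UMIs, of which 1 wild-type cell held 89.9%. Ccl5 had 817 and 279 UMIs in 9 cells each, a log2 ratio of -0.75, and without the cells that held at least 10 NK list UMIs the ratio of Ccl5 was 4.38. Trdc, the constant chain of gamma-delta T cells, had 4 and 19 UMIs, of which 1 knock-in cell held 89.5%. Nkg7 stood at 360 and 408 CPM (0.18, -0.17 to 0.53).

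Erythroid cells in division were 9 in the knock-in and 1 in the wild-type library. The 9 cells held 831 to 16464 UMIs each and from 58 to 8499 UMIs of an erythroid list of haemoglobin, haem and membrane genes. The cell with the most UMIs held the fewest of the erythroid list, and 24 UMIs of a stem and progenitor list. The 1 wild-type cell held 1274 UMIs of the erythroid list among 3153. Mki67 had the most UMIs of the 4 selecting genes in the knock-in erythroid cells (82, in 9 of 9 cells), of which 1 cell held 46. Their median S phase percentage was 14.8.

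Dividing myeloid cells were of different kinds. Of the 4 in the knock-in library, 3 carried the secondary granule genes of neutrophil precursors, with 1166, 772 and 522 UMIs of Camp and 1384, 585 and 384 UMIs of Ngp. The same 3 cells held 1903, 1981 and 1384 UMIs of S100a8. The fourth knock-in cell and both wild-type cells held 16, 25 and 8 UMIs of a dendritic cell list, and the deeper wild-type cell also 86 UMIs of S100a8. These 3 cells held no more than 1 UMI of the early myeloid list each. Of the 5 unassigned wild-type cells 4 held 94, 142, 91 and 45 UMIs of the NK list, and of the 8 unassigned knock-in cells 1 held 13. The unassigned cells therefore included NK gene carriers in the wild-type library that the lineage rule has no class for.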

How the data were processed

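The deposited files are count matrices of UMIs per gene and cell barcode for 32285 features, made by the authors. Per the file headers the software was Cell Ranger 6.1.2. Cell Ranger 7.1.0, Seurat 5.0.3 and the mm10 build stand in the submitters' processing notes. The members and gene lists were chosen with earlier results of these data known. Cells were filtered and given lineages as the report states, and predicted doublets (Scrublet in scanpy 1.11.5, expected rate 0.08) were kept. UMIs were summed over the cells of a lineage and library and scaled to 1000000 (CPM). A gene was measured when its mean CPM reached 100 and its UMIs 50, called at 2-fold, and counted within lists at a log2 ratio of 0.32. For members over other cells, a gene needed 100 CPM in either population and 25 UMIs where the members carried it. Intervals are exact (Clopper-Pearson for shares, conditional binomial for ratios, Poisson for CPM). They cover counting error only, so the depth of each library, and 82 or fewer cells per lineage, limit the precision. Named genes were the 4 selecting genes, the 8 highest and 8 lowest ratios of the B lineage with no cell above 20% of a gene's UMIs, up to 4 genes per list and 10 genes over other cells. The T lineage, with under 30 knock-in cells, was not ranked. Some genes of the lists are not reported here. Genes named outside the rule were chosen after their values were seen. TMM factors (edgeR 4.0.16, R 4.3.3) served as an alternative scaling only. Python 3.11.15, numpy 2.4.6, pandas 2.3.3, scipy 1.17.1 and matplotlib 3.10.9 were used, and the ratio computation was tested on simulated data.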

Additional observations from a re-analysis of the deposited data

Results flagged for a closer look

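Proliferating cells above the Jchain limit were outside the selection and were counted separately, because they appeared in data that the comparisons did not use. Antibody-secreting cells carry large amounts of Jchain RNA, and 20 knock-in cells passed 3 marker UMIs and held 50 or more UMIs of Jchain, against 3 wild-type cells. They were 0.0308% (0.00636 to 0.0901) of 9733 wild-type and 0.233% (0.142 to 0.360) of 8583 knock-in cells, a ratio of 7.56 (2.24 to 39.7) for counting error only. Cells with that much Jchain numbered 33 and 152, of which 9.09% and 13.2% were proliferating. Xbp1 and Mzb1, genes of the secretory program, were found in all of them, and Sdc1 (CD138) in 2 of 3 and 16 of 20. Ighm led the heavy chain counts in 2 of 3 wild-type and 13 of 20 knock-in cells, and the other knock-in cells were led by Ighg2b (2), Ighg2c (2), Ighg3 (2) and Igha (1). Their median depths were 29730 and 24964.5 UMIs. With no limit on Jchain the proliferating share was 0.966% and 1.70%, a log2 ratio of 0.82 (0.43 to 1.21).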

How the results depend on the processing

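No paired analysis was possible because each genotype has 1 library, and for the same reason no replicate could be left out. The log2 ratio of the proliferating share ranged from 0.26 (cells thinned to 1000 UMIs, at least 1 marker UMI) to 0.89, and the 9 other settings stayed within the interval of the share. In B-lineage cells the count of genes at least 2-fold higher was 20 with TMM scaling, 19 with each cell scaled to its own total, 703 with no gene filter and 19 at 2 marker UMIs, against 11. The count lower was 5 with TMM, 918 with no filter, 4 at 5 marker UMIs, 5 under 5% mitochondrial UMIs and 5 without predicted doublets, against 9. TMM kept 11 of the 11 higher and 5 of the 9 lower genes. Without cells holding germinal centre UMIs, 12 and 9 genes passed, of which 3 and 3 were shared. In T-lineage cells the higher count was 735 with no filter and 11 at 2 marker UMIs, against 18, and the lower count 978 with no filter, against 14. The B-lineage G2 and M median ranged from 0.36 to 0.79, its S phase median was 0.041 with each cell scaled to its own total, and the germinal centre ratio ranged from 0.94 to 1.63. The T-lineage medians ranged from 0.29 to 0.43 (S phase) and 0.03 to 0.32 (G2 and M). Gcsam turned to -0.11 with each cell scaled to its own total. Of 236 named genes, 2310 alternative values moved by less than their interval, 55 moved by more and 1 turned. Leaving out the cell with granule genes, germinal centre or NK list cells and cells under 5000 UMIs was chosen after seeing the data. The cause of these shifts was not tested. Few cells per lineage and 1 library per genotype limit all values.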
